A study of Mus musculus with 14 samples.

Results

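RNA of 14 samples of mouse peritoneal B-1a cells was hybridised to one-colour arrays, and 7 of them were labelled as knockouts (KO) of Bmi1, a subunit of a Polycomb repressive complex. The genes described here are 8 that mark or regulate B-1a cells: Cd5, Bhlhe41, Bhlhe40, Plscr1, Spn, Zbtb32, Ahr and Cd9. They were taken by gene name, which gave 12 probes of the 55681 probes that are no controls, under 8 of 34821 gene names. The groups were 3 Bmi1 KO samples and 3 wild-type (WT) samples in set 1, and 4 Bmi1 KO samples and 4 WT samples in set 2. The labels give the genotype and the peritoneal B-1a source. Set membership was read from how the titles number the samples. The sources used here do not give the deleted part of Bmi1, the strain, the sex or the age. Signal of Ddx3y, a gene of the Y chromosome, was lacking on 2 WT arrays, and sex was not tested. The labels also leave unsaid whether each sample was a separate mouse, so the p-values speak only of spread among these samples, part of which may be technical. Precision is limited by having 14 arrays.

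B-1a cells are self-renewing B lymphocytes of the body cavities, seeded largely in fetal life, that make natural antibody. They carry CD5, a receptor that dampens B cell receptor signalling, and CD43, which is encoded by Spn and is absent from resting follicular B-2 cells. The basic helix-loop-helix repressor Bhlhe41 is needed for the maintenance of mouse B-1a cells, and Bhlhe40 is its paralog. The comparison asks how these genes stand in B-1a cells without Bmi1.

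The probes that carry the results are given by the first 30 of their 60 bases, 5′ to 3′, all in lower case because no part is singled out. They are those of Bhlhe41 and Plscr1, which separated the genotypes most, with Bhlhe40 as the paralog of Bhlhe41 and Cd5 as the defining surface marker. Where a gene had a pair of probes, probe 1 is the one with the higher mean over all arrays.
Bhlhe41 probe 1: ttgaaagcgctaacagccttaactgagcag
Bhlhe41 probe 2: gaggagtcgccgggtttccaagttcaaacg
Plscr1 probe 1: gttcccgctagacctggatgtgaagatgaa
Plscr1 probe 2: taactccctgagagttcttgaggtttaagg
Bhlhe40 probe 1: agcagcggatggagcgtccttgctaaaaag
Cd5 probe 1: gaccagtggggttggctttctccttggact

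In mm9, the build named in the file headers, Bhlhe41 probe 1 lay at chr6:145812652-145812711 and probe 2 at chr6:145811275-145811334, both on the minus strand. Plscr1 probe 1 lay at chr9:92164754-92164813 and probe 2 at chr9:92166424-92166483, both on the plus strand. Bhlhe40 was read at chr6:108616309-108616368 on the plus strand and Cd5 at chr19:10792701-10792760 on the minus strand. The other probes were at chr7:134277313-134277372 and chr7:134276998-134277057 (Spn), chr7:31374702-31374761 (Zbtb32), chr12:36188523-36188582 and chr12:36182724-36182783 (Ahr), and chr6:125410387-125410446 (Cd9). Whether a probe lies in coding sequence or in a UTR was not analysed here. The GC content of the probes ran from 35% (Spn probe 2, both Ahr probes and Cd9) to 55% (Bhlhe41 probe 2), with 40% for Bhlhe41 probe 1 and 48.3% and 43.3% for the Plscr1 probes.

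Bmi1 itself was not lower on the arrays labelled KO. Its probe 1 ran from -1.57 to 3.78 in KO (median 2.58), against -3.12 to 2.09 in WT (median 1.22), in log2 units relative to the 75th percentile of each array. Probe 2 ran from -3.15 to 2.62 in KO (median -0.16), against -5.32 to -2.19 in WT (median -4.73). KO minus WT, relative to the median of all probes tested, was 0.77 (SE 0.90) for probe 1 and 3.42 (SE 0.87) for probe 2. Neither passed (limma adjusted p = 0.547 and 0.176). Probe 1 was above background on 6 KO and 6 WT arrays, and probe 2 on 5 KO and 3 WT arrays. Only a probe within the deleted part could test the genotype, and that part is unknown, so these values are no check of the labels and KO means labelled KO throughout. The arrays also differed in brightness. Probes well above background made up 20.6% to 56.6% of spots on the KO arrays (median 37.3%) and 43.7% to 63.1% on the WT arrays (median 51.7%). The 4 arrays with under 40% were all KO: set 1 replicate 4 and set 2 replicates 1, 2 and 3. Of the 12 member probes, 2 to 10 were well above background on a KO array (median 4) and 9 to 12 on a WT array (median 10). The 4 dim KO arrays had 3, 3, 2 and 4 of them and the other 3 KO arrays had 9, 10 and 10. The 8 B cell markers examined, among them Cd79a and Pax5, were above background on every array of both genotypes. Of the T cell markers, Cd4 exceeded background on all 14 arrays, Cd8a and Lck on 6 KO and 7 WT arrays, Cd3e on 4 and 6, Cd3g on 3 and 6 and Cd3d on 2 and 2. The summed level of these 6 markers was 1.25 to 4.68 in KO and 1.20 to 3.02 in WT.

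Levels below are log2 signals relative to the 75th percentile of each array. A difference is KO minus WT from limma with set as a covariate, printed relative to the median of all 29679 probes kept, which was 0.32. The p-values test KO minus WT against 0, before that median is taken off. Probes entered the test when 4 or more of the 7 arrays of a genotype read them well above background, which held for 11 of the 12 member probes and at least 1 probe of each of the 8 genes. At an adjusted p under 0.05, 0 of the 11 member probes passed (limma), against 0.0303% of all probes kept, 0.00337% higher and 0.027% lower. At an unadjusted p under 0.05, 4 were lower in KO and 0 higher, where 5.38% of all probes kept were lower and 8.18% higher. Those 4 were both probes of Bhlhe41 and both probes of Plscr1.

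**Figure D1:**
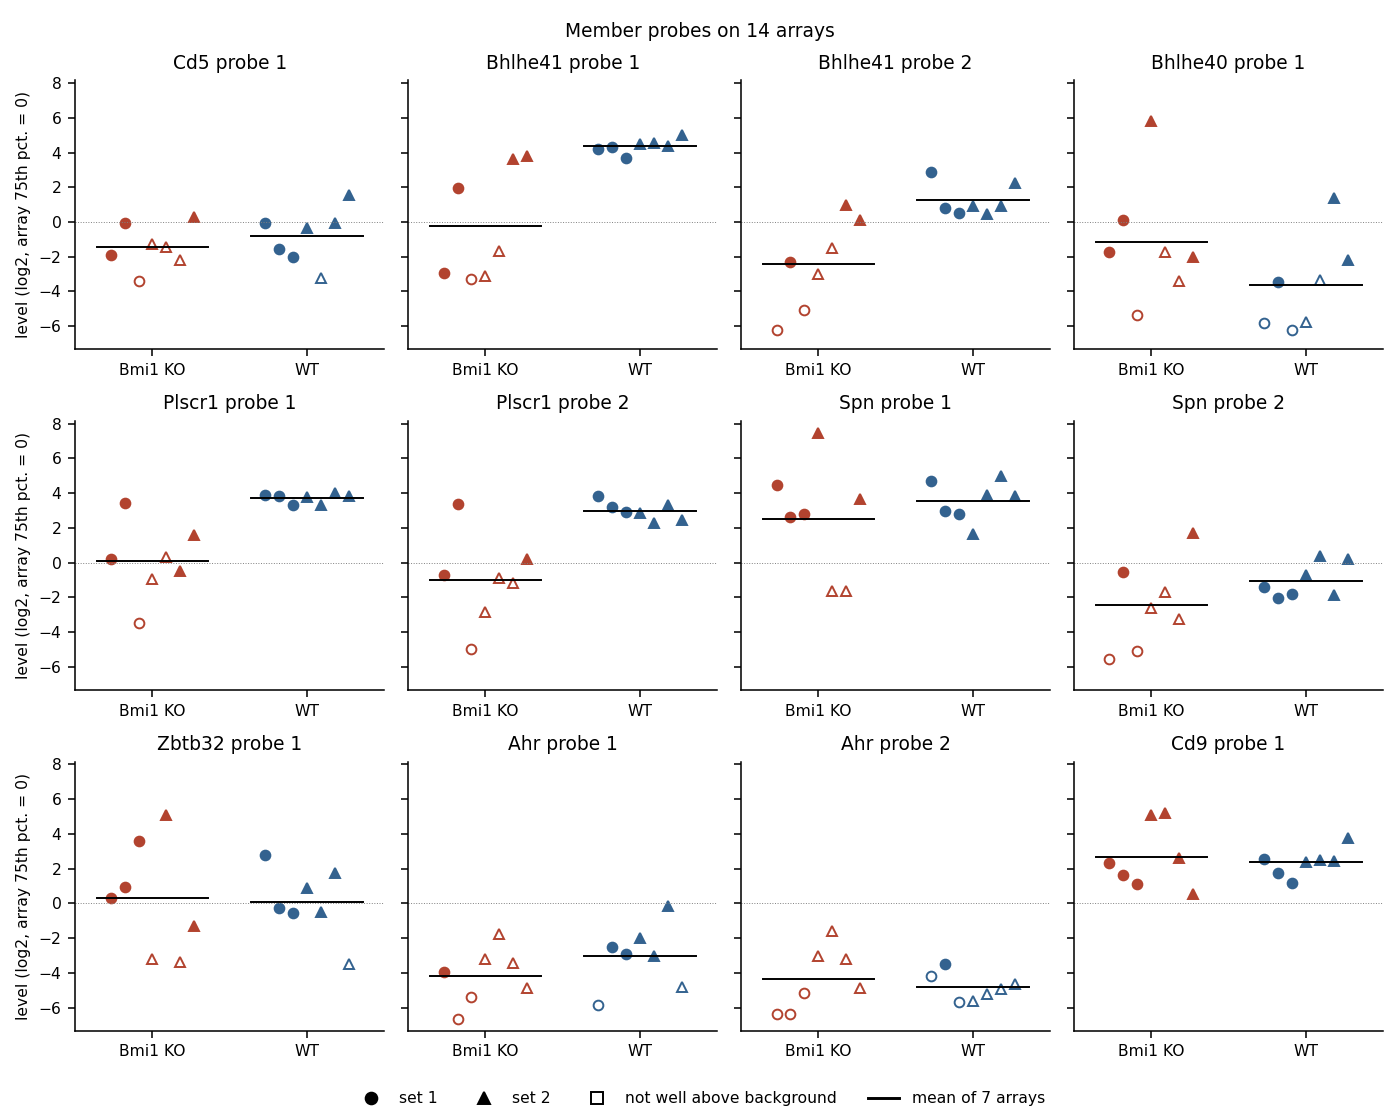
Log2 levels of the 12 member probes on the 7 Bmi1 KO (red) and 7 WT (blue) arrays, relative to the 75th percentile of each array, with circles for set 1, triangles for set 2, open symbols for spots not well above background and a line at the mean. In the Bhlhe41 and Plscr1 panels 6 of 7 KO arrays lie below all WT arrays.

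Bhlhe41, the repressor on which mouse B-1a cells depend, was scattered in KO, against WT levels that were close together on probe 1 and less so on probe 2. On probe 1 the levels were -2.95, 1.95 and -3.26 in KO set 1 and -3.13, -1.65, 3.61 and 3.82 in KO set 2. In WT they were 4.19, 4.32 and 3.69 in set 1 and 4.49, 4.54, 4.40 and 5.0 in set 2. KO set 2 replicates 3 and 4 thus read close to the WT arrays, KO set 1 replicate 3 lay in between, and the other 4 KO arrays lay far below. The highest KO array, at 3.82 in set 2, exceeded the lowest WT array, at 3.69 in set 1. In set 2 itself the lowest WT array read 4.40, and in set 1 the highest KO array read 1.95. Over both sets, 6 of 7 KO arrays lay below all WT arrays. Among all probes kept, 0.765% had at least 6 of 7 KO arrays below all WT arrays, and 0.128% had all 7, as 0 member probes did.

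The mean of Bhlhe41 probe 1 was -0.23 ± 3.24 in KO, against 4.38 ± 0.40 in WT (SD, n = 7 each). The difference was -4.93 relative to all probes (SE 1.10, limma adjusted p = 0.182), and its exact permutation p within sets was 0.00143, two-sided, the smallest that the 1400 arrangements can give. A larger SD over the KO arrays was found for 9.14% of probes kept, and a smaller SD over the WT arrays for 4.23%. For probe 2 these shares were 22.5% and 39.3%. Signal exceeded background on 4 of 7 KO arrays and on every WT array. Of probes above background on all 7 WT arrays, 18.7% were above background on at most 4 KO arrays.

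Probe 2 of Bhlhe41 reads a neighbouring stretch of the same strand. Its levels were -6.25, -2.30 and -5.05 in KO set 1 and -2.97, -1.49, 0.96 and 0.11 in KO set 2. In WT they were 2.90, 0.81 and 0.52 in set 1 and 0.91, 0.48, 0.93 and 2.24 in set 2. KO set 2 replicate 3 overlapped the WT arrays and the other 6 KO arrays lay below all of them. All 7 WT arrays read probe 2 above background, but only 3 KO arrays did. KO set 1 replicates 2 and 4 and set 2 replicates 1 and 2 did not, so their levels are background signal. The difference was -4.0 (SE 0.91, limma adjusted p = 0.192; exact permutation p = 0.00571, two-sided).

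Bhlhe41 levels are set here beside the brightness of the arrays, whose part in them was not tested. KO set 1 replicate 2 had 56.6% of probes above background and read -2.95 on probe 1, above background. KO set 2 replicate 3 had 31.6% of probes above background and read 3.61. Before scaling, its log2 signal was 8.91, where WT arrays ran from 11.59 to 12.18. The 75th percentile of that array was 5.29, against 7.09 to 7.99 on WT arrays. The remaining 3 dim KO arrays read -3.26, -3.13 and -1.65, none above background. Without the 4 dim KO arrays, which left 3 KO arrays, the difference was -2.94 (limma adjusted p = 0.729) for probe 1 and -3.71 (adjusted p = 0.666) for probe 2. In such bulk samples fewer cells that express a gene and less of its RNA per cell cannot be told apart.

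**Figure D2:**
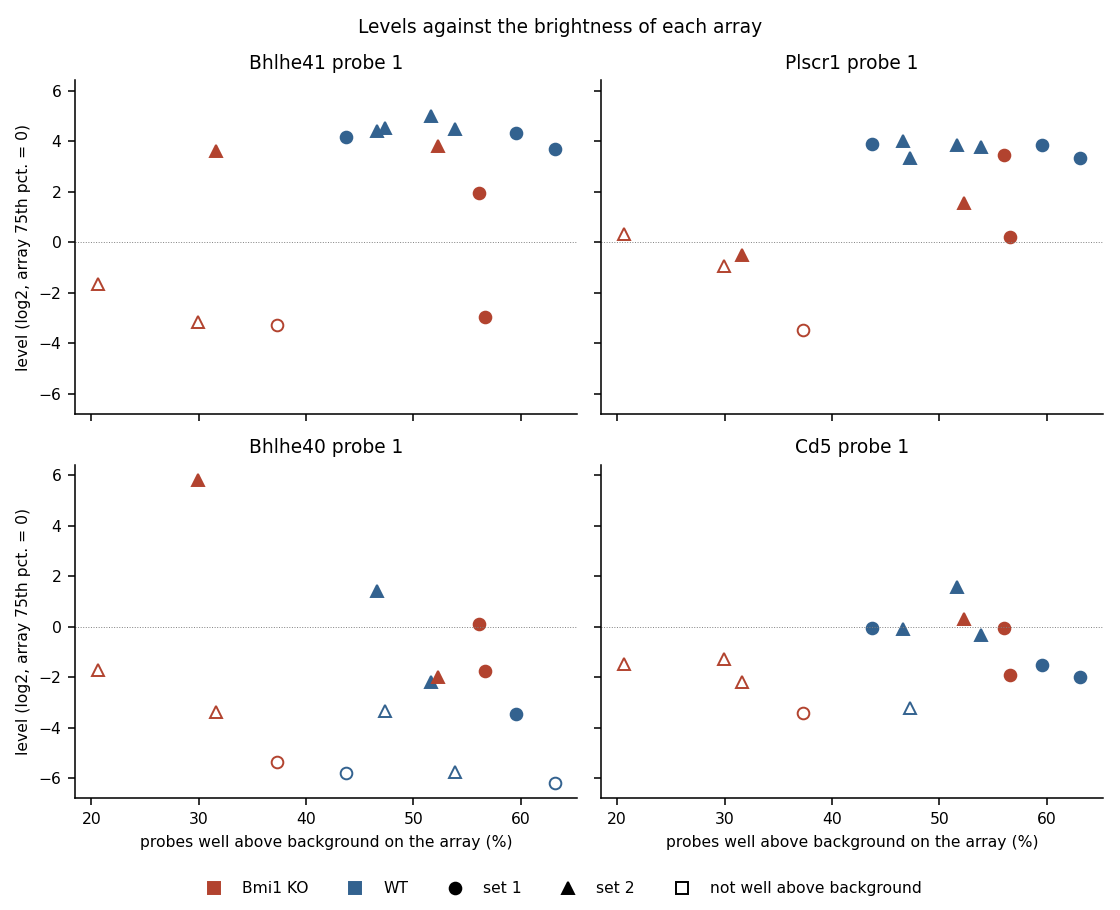
Log2 level of Bhlhe41 probe 1, Plscr1 probe 1, Bhlhe40 probe 1 and Cd5 probe 1 (vertical axis) against the share of probes well above background on the same array in percent (horizontal axis), with KO arrays in red, WT arrays in blue, circles for set 1, triangles for set 2 and open symbols for spots not well above background. KO set 1 replicate 2, at 56.6%, reads -2.95 for Bhlhe41, while KO set 2 replicate 3, at 31.6%, reads 3.61.

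Plscr1 encodes a phospholipid scramblase of the plasma membrane that is induced by interferon. Its levels on probe 1 were 0.22, 3.45 and -3.48 in KO set 1 and -0.94, 0.35, -0.49 and 1.57 in KO set 2. In WT they were 3.91, 3.86 and 3.33 in set 1 and 3.78, 3.35, 4.02 and 3.84 in set 2. KO set 1 replicate 3 read within the WT range, and the other 6 KO arrays lay below all WT arrays. The mean was 0.10 ± 2.15 in KO, against 3.73 ± 0.28 in WT (SD, n = 7 each). All 7 WT arrays read probe 1 above background, but only 4 KO arrays did. The KO spots that fell short were on dim arrays, set 1 replicate 4 and set 2 replicates 1 and 2. How low the gene lay on those arrays was thus not measured. A larger SD over the KO arrays was found for 38% of probes kept (23.1% for probe 2), and a smaller SD over the WT arrays for 0.869% (11% for probe 2).

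The difference of Plscr1 probe 1 was -3.95 (SE 0.83, limma adjusted p = 0.176; exact permutation p = 0.00286, two-sided). Probe 2 read -0.73, 3.35 and -4.99 in KO set 1 and -2.86, -0.88, -1.19 and 0.20 in KO set 2. In WT it read 3.84, 3.20 and 2.93 in set 1 and 2.85, 2.28, 3.33 and 2.46 in set 2. Probe 2 exceeded background on all 7 WT arrays but only 3 KO arrays. On the 4 dim KO arrays its levels are background signal. The same KO array, set 1 replicate 3, reached the WT range and the others did not, for a difference of -4.32 (SE 0.95, limma adjusted p = 0.182; exact permutation p = 0.00429, two-sided). Both probes passed when KO set 1 replicate 3 was left out, with differences of -4.62 and -5.12 (limma adjusted p = 0.0258 for each), a run in which 65 probes passed in all. Without the 4 dim KO arrays the differences were -1.87 and -2.11 (adjusted p = 0.711 and 0.730).

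Bhlhe41 and Plscr1 did not single out the same KO arrays. KO set 2 replicate 3 read 3.61 for Bhlhe41 probe 1, near the WT mean of 4.38, but -0.49 for Plscr1 probe 1, against a WT mean of 3.73. KO set 1 replicate 3 read 3.45 for Plscr1, within the WT range of 3.33 to 4.02, but 1.95 for Bhlhe41, below the WT range of 3.69 to 5.0. KO set 2 replicate 4, at 3.82 for Bhlhe41 probe 1, lay within the WT range over both sets but below the WT arrays of its own set. For Plscr1, at 1.57, it lay below the WT range. KO set 1 replicate 4 was low for both, at -3.26 and -3.48.

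Bhlhe40 is the paralog of Bhlhe41 and binds the same E-box motif. It was the only member probe above background on more KO arrays than WT arrays, 4 of 7 against 3 of 7. Its levels were -1.74, 0.11 and -5.35 in KO set 1 and 5.82, -1.71, -3.38 and -1.99 in KO set 2. In WT they were -5.80, -3.45 and -6.20 in set 1 and -5.75, -3.34, 1.41 and -2.18 in set 2. The KO readings of -5.35, -1.71 and -3.38 and the WT readings of -5.80, -6.20, -5.75 and -3.34 were not above background. Before scaling, KO set 2 replicate 2, at -1.71, had a log2 signal of 1.91, and WT set 1 replicate 2, at -5.80, had 1.59. The part of such background signal in the difference was not tested. The groups overlapped over most of their range, and 1 KO array, set 2 replicate 1, stood above all WT arrays.

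The mean of Bhlhe40 was -1.18 ± 3.52 in KO, against -3.62 ± 2.69 in WT (SD, n = 7 each). The difference of 2.12 (SE 1.38) did not pass (limma adjusted p = 0.402; exact permutation p = 0.154, two-sided), and without KO set 2 replicate 1 it was 1.11 (adjusted p = 0.578). That array, with Bhlhe40 at 5.82, had Bhlhe41 probe 1 at -3.13. Its summed level of 7 macrophage markers was 8.26, where KO arrays ran from 3.15 to 9.36 and WT arrays from 3.35 to 7.41. It was a dim array, with 3 of the 7 above background, where WT arrays had 3 to 7. Its summed level of B cell markers, at 11.1, also lay above the WT arrays, which reached 9.77. The array at 9.36, KO set 2 replicate 2, had Bhlhe40 at -1.71, not above background. The part of these markers in the Bhlhe40 value was not tested.

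Cd5, the surface receptor that defines B-1a cells and restrains B cell receptor signalling, was dim on these arrays. Background was exceeded on 3 of 7 KO arrays, against 6 of 7 for WT. Its levels were -1.90, -0.06 and -3.41 in KO set 1 and -1.29, -1.47, -2.18 and 0.30 in KO set 2. In WT they were -0.05, -1.53 and -2.0 in set 1 and -0.34, -3.22, -0.08 and 1.58 in set 2. The genotypes overlapped: 1 KO array lay below all WT arrays and 0 lay above them.

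The mean of Cd5 was -1.43 ± 1.27 in KO, against -0.80 ± 1.57 in WT (SD, n = 7 each). The difference of -0.94 (SE 0.77) did not pass (limma adjusted p = 0.704; exact permutation p = 0.449, two-sided). It was 0.57, of the opposite sign, without the 4 dim KO arrays (adjusted p = 1.0), and on those 4 arrays Cd5 was not above background. The 5 measured T cell markers, a cell type that also carries CD5, had a median difference of -0.04 and ran from -0.46 (Lck) to 0.79 (Cd4).

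Spn encodes CD43, the sialomucin that separates B-1 cells from resting B-2 cells. Probe 1 read 4.49, 2.63 and 2.82 in KO set 1 and 7.46, -1.64, -1.64 and 3.68 in KO set 2. In WT it read 4.68, 2.99 and 2.82 in set 1 and 1.64, 3.90, 4.98 and 3.87 in set 2. The highest and the lowest arrays were both KO, set 2 replicate 1 at the top and set 2 replicates 2 and 3, not above background, at the bottom. Before scaling, the dim KO set 2 replicate 1 had a log2 signal of 12.49. KO set 1 replicate 2 had 12.48, and WT arrays ran from 9.0 to 12.21. The part of the scaling in these levels was not tested. Means were 2.54 ± 3.28 in KO, against 3.55 ± 1.16 in WT (SD, n = 7 each), for a difference of -1.33 (SE 1.20, limma adjusted p = 0.688; exact permutation p = 0.446, two-sided). It was -2.19 without KO set 2 replicate 1, -0.51 without replicate 2 and -0.60 without replicate 3 of that group.

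Spn probe 2 exceeded background on 2 of 7 KO arrays and on all 7 WT arrays. Of probes above background on all 7 WT arrays, 18.7% were above background on at most 4 KO arrays. The levels averaged -2.43 ± 2.55 in KO, against -1.03 ± 1.01 in WT (SD, n = 7 each). On 4 of the 7 KO arrays, set 1 replicates 2 and 4 and set 2 replicates 1 and 3, it lay below all WT arrays. None of those 4 readings was above background, so how low the gene lay there was not measured. KO set 2 replicate 4, at 1.70, was above all WT arrays, whose highest was 0.40. The difference was -1.72 (SE 0.89, limma adjusted p = 0.442; exact permutation p = 0.163, two-sided). Without the 4 dim KO arrays it was 0.22 for probe 2 and 0.19 for probe 1, so both turned sign.

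Zbtb32, a zinc finger repressor that restrains plasma cell responses, varied within both genotypes. It ran from -3.40 to 5.11 in KO (median 0.29) and from -3.52 to 2.77 in WT (median -0.30). Signal exceeded background on 5 of 7 KO arrays, against 6 of 7 for WT. Its difference was -0.12 (SE 1.25, limma adjusted p = 0.947; exact permutation p = 0.893, two-sided), far within the spread of either genotype. The highest level was on the dimmest array, KO set 2 replicate 2. Before scaling, its log2 signal was 8.74, below the 10.59 of KO set 1 replicate 4 and the 10.16 of WT set 1 replicate 2. Without KO set 2 replicate 2 the difference was -0.98 (limma adjusted p = 0.745).

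Ahr, the ligand-activated aryl hydrocarbon receptor, was near background. Probe 1 exceeded background on 1 KO array and 5 WT arrays, running from -6.63 to -1.75 in KO (median -3.98) and from -5.84 to -0.14 in WT (median -2.90). The fitted difference was -1.47 (SE 0.82, limma adjusted p = 0.484; exact permutation p = 0.206, two-sided), and -0.40 with normexp background correction. Since 6 of the 7 KO values, the highest included, were not above background, the KO side of this difference is mostly background signal. Probe 2 exceeded background on 0 KO arrays and 1 WT array and was too dim to be kept. Its levels ran from -6.39 to -1.61 in KO and from -5.70 to -3.48 in WT, and no fold is given.

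Cd9, a tetraspanin that organises membrane receptors and marks B-1 and marginal zone B cells, was the only member above background on all 14 arrays. Its levels were 2.34, 1.61 and 1.12 in KO set 1 and 5.08, 5.21, 2.61 and 0.54 in KO set 2. In WT they were 2.57, 1.73 and 1.15 in set 1 and 2.40, 2.49, 2.44 and 3.78 in set 2. The KO arrays stood on both sides of the WT arrays, 2 above and 2 below all of them. Before scaling, the 2 above, the dim KO set 2 replicates 1 and 2, had log2 signals of 10.12 and 8.84. The 2 below, KO set 1 replicate 4 and set 2 replicate 4, had 8.12 and 7.88, and WT arrays ran from 9.14 to 10.87. The part of the scaling in these levels was not tested. Means were 2.64 ± 1.85 in KO, against 2.37 ± 0.81 in WT (SD, n = 7 each), and the difference was -0.04 (SE 0.72, limma adjusted p = 0.867; exact permutation p = 0.709, two-sided).

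The 2 sets were then compared, since a slide held arrays of 1 set only. For Bhlhe41 probe 1 the difference was -5.45 (SE 1.71) in set 1 and -4.65 (SE 1.48) in set 2, each relative to all probes of that set. For Plscr1 probe 1 it was -3.59 (SE 1.31) and -4.33 (SE 1.13). Bhlhe41 probe 2 differed by -5.90 (SE 1.21) in set 1 and by -2.70 (SE 1.04) in set 2. The contrast of the 2 sets had an unadjusted p of 0.0256 for that probe, and 5.37% of all probes kept had one under 0.05. After adjustment it was 0.876 (limma), and 0 of 11 member probes depended on the set, as did 0% of all probes kept.

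Within set 1 alone 4 of 11 member probes had an unadjusted p under 0.05 (limma), where 7.80% of all probes kept did, and within set 2 alone 3 of 11, where 13.2% did. After adjustment 0 member probes passed in either set, against 0.0236% of all probes kept in set 1 and 0.0135% in set 2. In set 1 these were both probes of Bhlhe41 and Plscr1, and in set 2 the same without Bhlhe41 probe 2. Spn probe 1 differed by -0.14 in set 1 and -2.34 in set 2, and Zbtb32 by 1.0 and -1.07. The sign was the same in both sets for 10 of 11 kept probes, Zbtb32 being the exception. On slide 2, which held 4 KO and 2 WT arrays of set 2, the differences were -4.53 for Bhlhe41 probe 1, -4.53 for Plscr1 probe 1, 1.11 for Bhlhe40 and -1.70 for Cd5.

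**Figure D3:**
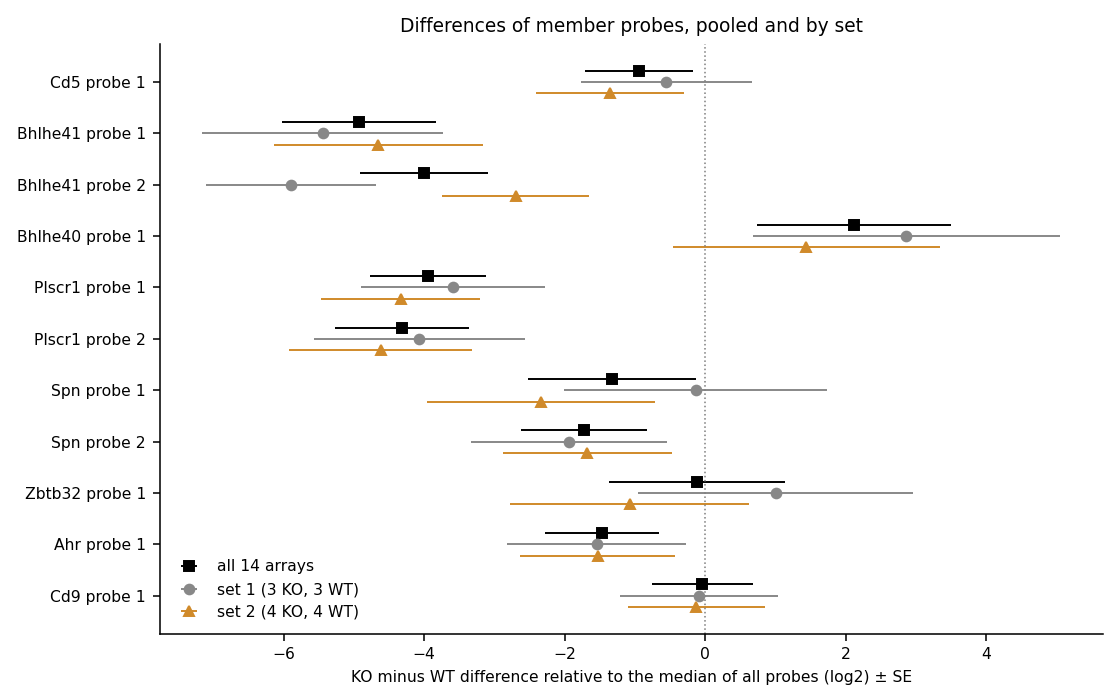
KO minus WT difference of the 11 kept member probes on the log2 scale, relative to the median of all probes, with its SE, for all 14 arrays (black squares), set 1 (grey circles) and set 2 (orange triangles). Both probes of Bhlhe41 and Plscr1 lie between -5.90 and -2.70 in either set, and Cd9 lies near 0.

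Across the 8 genes, 7 had a difference below 0 relative to all probes by their brighter probe, where 44.7% of all gene names measured did. The median over the 11 kept probes was -1.47. Neither figure is a test, since the genes were chosen with earlier results of these data known. At least 6 of 7 KO arrays lay below all WT arrays for 4 of the 11 probes, and for 0.765% of all probes kept. Those 4 were among the 7 member probes above background on all 7 WT arrays. Of all probes above background on the 7 WT arrays, 1.37% had at least 6 of 7 KO arrays below all WT arrays.

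Other genes known for B-1 cells had differences on both sides of 0. Of 18 further B-1 genes, 17 were measured, 0 passed in either direction (limma) and 2 higher and 1 lower had an unadjusted p under 0.05, where 13.6% of all probes kept did in either direction. Their median difference was 0.50. Lgals1, which encodes galectin-1, differed by 1.49 (SE 0.70, adjusted p = 0.340) and S100a6, a calcium-binding protein, by 1.46 (SE 0.77, adjusted p = 0.359). Il10, the regulatory cytokine of B-1 cells, differed by -2.64 (SE 1.04, adjusted p = 0.366). Only 2 KO arrays read Il10 above background, where all 7 WT arrays did. Of probes above background on all 7 WT arrays, 18.7% were above background on at most 4 KO arrays. Plac8 differed by 0.89 (SE 0.60, adjusted p = 0.371).

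Among partners of CD5 and other attenuators of B cell receptor signalling, 8 of 8 genes were measured and 0 passed (limma). Cbl, an E3 ubiquitin ligase that binds CD5, was the lowest at -4.05 (SE 0.86, adjusted p = 0.176). It lay below all WT arrays on 6 of 7 KO arrays (0.765% of all probes kept had at least 6). It exceeded background on 2 KO arrays, against 7 for WT, and 18.7% of probes above background on every WT array were so on at most 4 KO arrays. Cd72, an inhibitory coreceptor, differed by 2.51 (SE 1.22, adjusted p = 0.361). The inositol phosphatase gene Inpp5d differed by 1.39 and the tyrosine phosphatase gene Ptpn6 by 0.94 (adjusted p = 0.412 and 0.424). The median of this list was 0.96.

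Of 11 clock genes and repression partners of Bhlhe40 and Bhlhe41, 9 were measured and 0 passed (limma), with a median of -0.04. Per1, a clock repressor, differed by -3.57 (SE 0.88, adjusted p = 0.227), and 5 of 7 KO arrays lay below all WT arrays, as for 2.83% of all probes kept. Nr1d1 differed by 1.19, Cry2 by 1.02 and Clock by -1.33 (adjusted p = 0.407, 0.371 and 0.423). Among 8 partners and classical targets of Ahr 3 were measured, and Cyp1a1, Cyp1b1, Cyp1a2 and Ahrr were above background on 0 of 14 arrays. The Ahr dimerisation partner Arnt differed by -1.98 (SE 0.91, adjusted p = 0.392).

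Of 7 other genes of phospholipid scrambling and flipping, 3 were measured and 0 passed (limma). Ano6, a calcium-activated scramblase, differed by -3.48 (SE 0.90, adjusted p = 0.231). On 5 of the 7 KO arrays it lay below all WT arrays, as at least 5 did for 2.83% of all probes kept. Of 9 tetraspanins and partners of Cd9, 6 were measured and 0 passed. Cd81 differed by 1.70, Cd37 by 1.19, Cd82 by 1.18 and Tspan32 by -2.13 (adjusted p = 0.357, 0.370, 0.373 and 0.382). Of 7 relatives and partners of Zbtb32, 5 were measured and 0 passed, Zbtb20 being the lowest at -1.98 (adjusted p = 0.405).

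**Figure D4:**
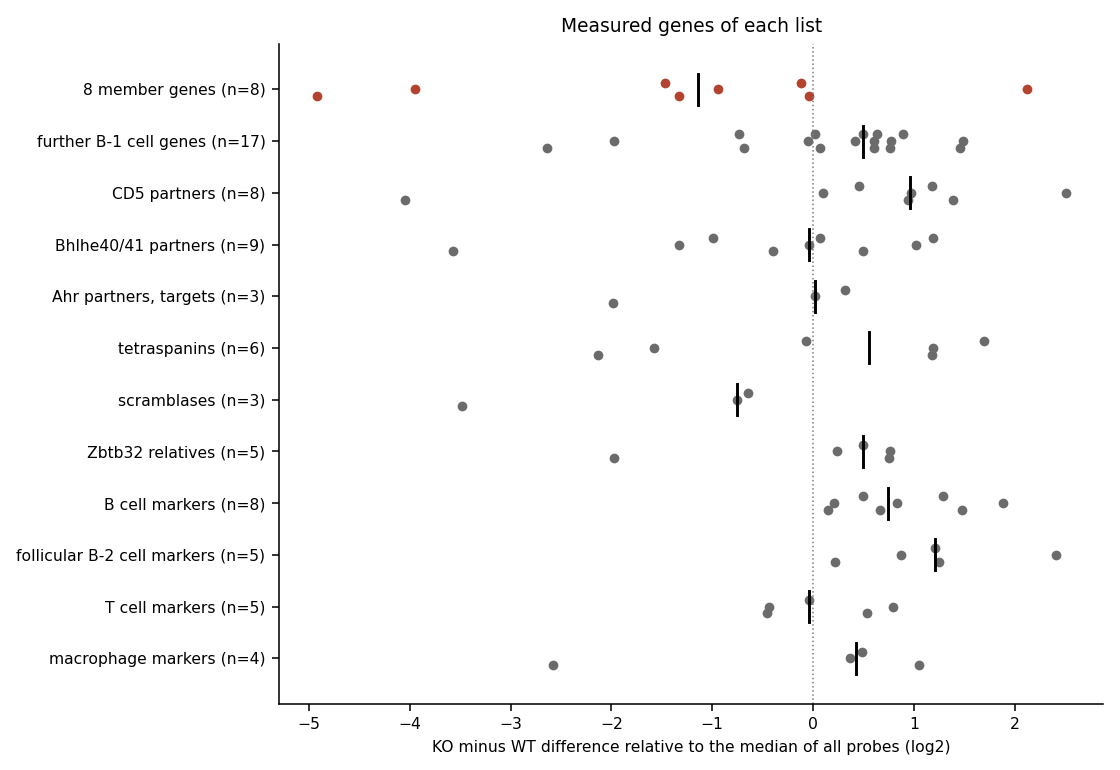
KO minus WT difference on the log2 scale relative to the median of all probes for each measured gene of the lists (points) with the list's median (bar), the 8 member genes in red and the other lists and marker sets in grey. The member genes run from -4.93 to 2.12 with a median of -1.14, and the further B-1 cell genes have a median of 0.50.

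Markers of other cells gave the setting of these values. The 8 B cell markers had a median difference of 0.75 and the 5 measured follicular B-2 markers one of 1.21. The summed level of the B cell markers was 8.35 to 12.7 in KO and 7.97 to 9.77 in WT. The 4 dim KO arrays, at 10.3 to 12.7, were above all WT arrays, and the other 3 KO arrays, at 8.35, 8.55 and 8.49, were within the WT range. Plasma cell markers summed to 2.48 to 8.77 in KO and 2.65 to 4.23 in WT. No marker of the 11 sets passed in either direction, and the part of other cells in the member values was not tested.

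The measured genes whose levels followed Bhlhe41 probe 1 most closely over the 14 arrays were an unnamed intergenic transcript, Srpk2, Klhl26, Tmem245 and Gtf2i, with Pearson's r of 0.96, 0.95, 0.95, 0.94 and 0.94. They came from 14904 gene names above background on at least 10 arrays. Within KO the r values were 0.93 to 0.97, while within WT they ran from -0.52 to 0.44. Those most like Cd5 were Lrrc71, Cnot7, Flywch1, TC1651158 and X59193, with r of 0.84 to 0.78. All points share the scaling and brightness of their array, so these values describe likeness and carry no test.

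Promoter sequence from RefSeq (GRCm38.p6, 250 bases before to 50 after a start) matched 6 of the 8 genes, Bhlhe40 and Ahr being the ones without an entry. The E-box CACGTG, which Bhlhe41 and Bhlhe40 bind, was found in 1 of the 6, that of Bhlhe41 itself, and in 7.15% of 32851 promoters of the same length. The xenobiotic response core GCGTG, read by Ahr, was in 3 of the 6 and in 32.4% of all promoters. The interferon response core, a pair of GAAA runs with any 2 bases between them, was in 0 of the 6 and in 3.44% of all. Both strands were searched, and a match is a description of the letters only. The 250 bases upstream of Bhlhe41, at chr6:145865421-145865670 on the minus strand of GRCm38.p6, are shown because its product binds the E-box, in capitals, which starts at -153 from the start.
Bhlhe41 upstream: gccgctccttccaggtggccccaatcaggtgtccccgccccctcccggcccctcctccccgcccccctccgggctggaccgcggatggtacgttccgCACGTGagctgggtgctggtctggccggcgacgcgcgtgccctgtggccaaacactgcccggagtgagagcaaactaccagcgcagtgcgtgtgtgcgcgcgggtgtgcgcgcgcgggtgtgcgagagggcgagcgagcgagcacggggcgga

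**Figure D5:**
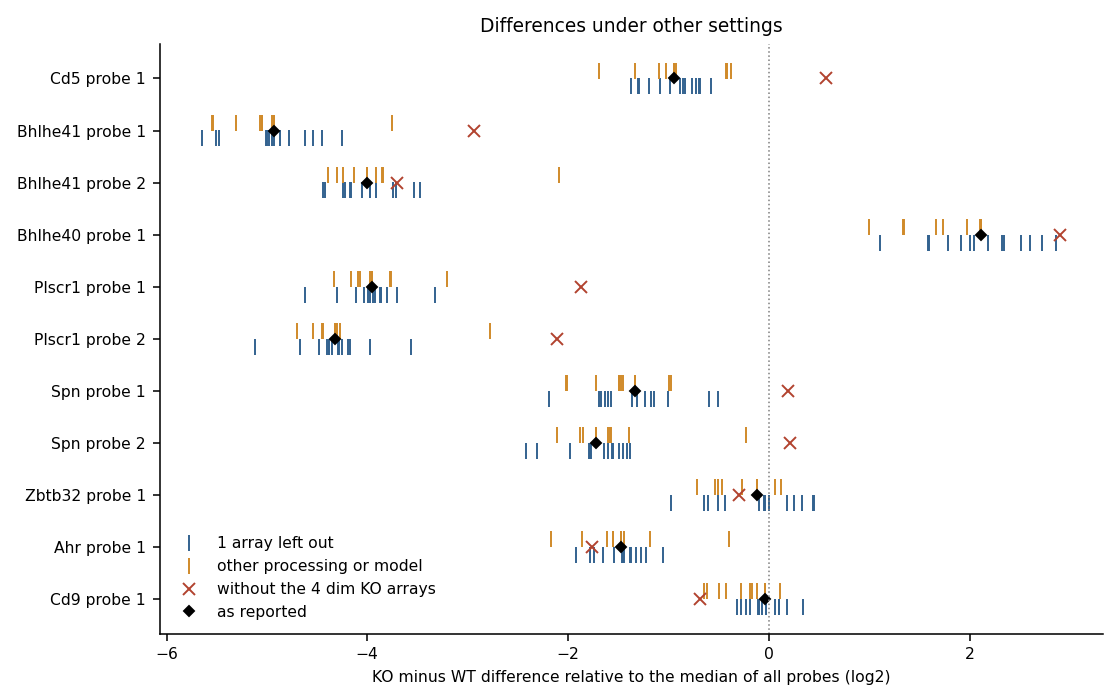
KO minus WT difference of the 11 kept member probes on the log2 scale, relative to the median of all probes, as reported (black diamonds), with 1 array left out (blue ticks), under other processing or models (orange ticks) and without the 4 dim KO arrays (red crosses). Bhlhe41 and Plscr1 stay below 0 in every run shown, and Cd5 and both Spn probes lie above 0 without the dim arrays.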

How the data were processed

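Intensities were measured by the authors with Agilent Feature Extraction 10.7.3.1 on one-colour arrays, per the file headers, with detrending and surrogate values for dim spots. Total RNA was extracted with a column kit, and cDNA was labelled with Cy3 by a company's undisclosed method, per the labels. Spot marks scored 0 or 1 came with the deposited scanner output. The deposited log2 table had a median of 3.952 on every array and followed the scanner values (Spearman's rho at least 0.9993). The scale and direction are thus settled, and the sources used here do not give its exact method.

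Here log2 processed intensity minus the 75th percentile of each array's 59305 non-control spots was used. Outlier spots were left out and spots of a probe averaged, and 0 spots were saturated. Tests were limma 3.58.1 in R 4.3.3 (lmFit, eBayes, set as covariate, two-sided, Benjamini-Hochberg over all 29679 probes kept, threshold 0.05) and exact permutation of genotype within sets. The fit was tested on simulated data. Figures used matplotlib 3.10.9 in Python 3.11.15. The members and gene lists were chosen with earlier results of these data known. All members were named, with up to 4 genes of each list by smallest p and 5 genes most like Bhlhe41 and Cd5. Zbtb20 and others repeated in lists count in each. Of the genes with highest r, 1 has no gene symbol. Alternatives changed the scaling, background, covariates, filter, probe choice and arrays. Results that need items withheld from this work are not reported here.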

Additional observations from a re-analysis of the deposited data

Results flagged for a closer look

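Cd9 on WT set 2 replicate 4 stood apart from its group, at a level of 3.78 where the other WT arrays of set 2 read 2.40, 2.49 and 2.44. The gap took up more of the group's range than Dixon's limit for 4 samples allows. In all, 24 groups of member probes were examined this way and 1 was picked out, where chance gives about 1 in 20.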

How the results depend on the processing

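With each of 11 alternative settings, each of 14 arrays left out in turn, and 2 reductions of the arrays chosen after seeing the data, 0 member probes passed, except the 2 of Plscr1 without KO set 1 replicate 3. The number of member probes that passed thus ran from 0 to 2 with 1 array left out, and that of all probes from 5 to 65. Over all 29679 probes 9 passed, 1 higher and 8 lower. This became 136 (1 higher, 135 lower) with the percentile taken over probes that exceed background on all 14 arrays, which moved the all-probe median from 0.32 to -1.03. It became 26 with quantile normalization and 26 with the deposited values (1 higher, 25 lower in each). It was 14 with slide as a random block, 21 for probes above background on all 7 arrays of a genotype and 5 with one probe per gene name. It was 5 without the 4 dim KO arrays and 5 without the 2 WT arrays lacking signal of the Y-linked gene Ddx3y. Those 2 were WT set 1 replicate 4 and WT set 2 replicate 2. The cause of these changes in the count was not tested. With KO set 2 replicate 4 left out 37 passed. Signs turned, none past the threshold, for Zbtb32 with normexp (0.058) and slide as a random block (0.13), for Cd9 with slide as a fixed block (0.11), and without the dim arrays for Cd5 (0.57) and Spn (0.19 and 0.22). With 1 array left out Zbtb32 ran from -0.98 to 0.45 and Cd9 from -0.32 to 0.34. Bhlhe41 ran from -5.64 to -2.94 (probe 1) and -4.44 to -2.09 (probe 2) over all settings, and Plscr1 from -4.62 to -1.87 and -5.12 to -2.11. Title numbers do not pair the samples: 1 of 7 same-numbered pairs had deviations that correlated over 0.1, 6 were under 0, and 1 of 7 KO arrays correlated best with its own number. With a replicate block 8 probes passed, 0 of them members, and Bhlhe41 probe 1 differed by -4.93 (limma adjusted p = 0.186). No interval for counting error applies to array signal, and Ahr, Cd5 and Bhlhe40 were limited by signal near background.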
